A study of Homo sapiens with 3 samples.

Results

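The comparison set hairpin 1 (sh1) directly against hairpin 2 (sh2), a pair of short hairpin RNAs aimed at the same transcript, TCONS_02256997, in KYSE510. KYSE510 is an established cell line from a human esophageal squamous cell carcinoma. It took in 2 of the 3 samples of the series and 6 of its 9 gene tables, without selection of genes: of the 19266 genes in each table, the 13580 with enough counts were tested. All 3 samples were KYSE510 cells infected with lentivirus for 24 h and then kept for 48 h in 4 µM puromycin, the antibiotic that kills cells without the vector. They carried sh1, sh2 or a scrambled control hairpin. The series was designed to look for possible targets of TCONS_02256997, and the level of that transcript was not analysed here.

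Each hairpin was 1 GEO sample with 3 numbered tables (n = 3 tables per group below). The labels do not tell cultures, libraries and repeat runs apart. All errors, adjusted p-values and numbers of called genes therefore measure the spread between tables of 1 sample, which may be technical, and no test between samples was possible. Differences between separately infected cultures and differences between hairpins cannot be told apart with 1 sample of each.

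A short hairpin RNA is cut by DICER1 into a small interfering RNA, whose guide strand is loaded into an Argonaute protein and pairs with the target. A guide can also silence other transcripts that match its seed, the bases near its 5′ end, and long double-stranded RNA can switch on the interferon system. Hairpins against the same transcript share their intended target but have different guides, which is why they are commonly used side by side.

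Most genes differed between the hairpins, and most of them by little. Of 13580 genes, 9477 (69.8%) passed an adjusted p of 0.05 (edgeR's quasi-likelihood test, Benjamini-Hochberg adjusted over all of them). Of these, 4647 (34.2%) were higher with sh1 and 4830 (35.6%) were lower. The sh1 and sh2 tables did not overlap for 9769 genes (71.9%). The median log2 fold change of sh1 over sh2 was 0.00 and the median absolute value 0.31. At least 2-fold differences that also passed the test numbered 1124 (8.28%), with 594 higher with sh1 (4.37%) and 530 lower (3.9%). At 4-fold there were 64 higher and 48 lower, and at 8-fold 7 and 6.

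Library sizes ran from 14660821 to 14770512 expected counts with sh1, from 15759270 to 16092417 with sh2 and from 15012961 to 15414591 in control, with 15498 to 15807 genes above 0 per table. Levels are given as CPM, expected counts divided by the library total with a TMM factor. A floor of 3 counts was 0.186 to 0.205 CPM, for counting error only. The median log2 fold change ran from -0.04 in the shortest to 0.04 in the longest of 4 equal groups of genes by transcript length, and from 0.10 in the lowest to -0.03 in the highest of 4 by CPM. All 11 squamous epithelial markers were at or above 1 TPM (a level adjusted for transcript length and library size). Their summed TPM was 5930 to 6010 with sh1, 7280 to 7450 with sh2 and 8590 to 8700 in control. Of the fibroblast markers 2 of 9 reached 1 TPM (COL1A1 and FAP), of the endothelial 1 of 6, of the leukocyte 4 of 7 and of the glandular epithelial 0 of 6. Of the glandular markers, CDX2 was at 0 in every table. In bulk RNA, fewer cells of a type and less RNA per cell cannot be told apart.

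**Figure D1:**
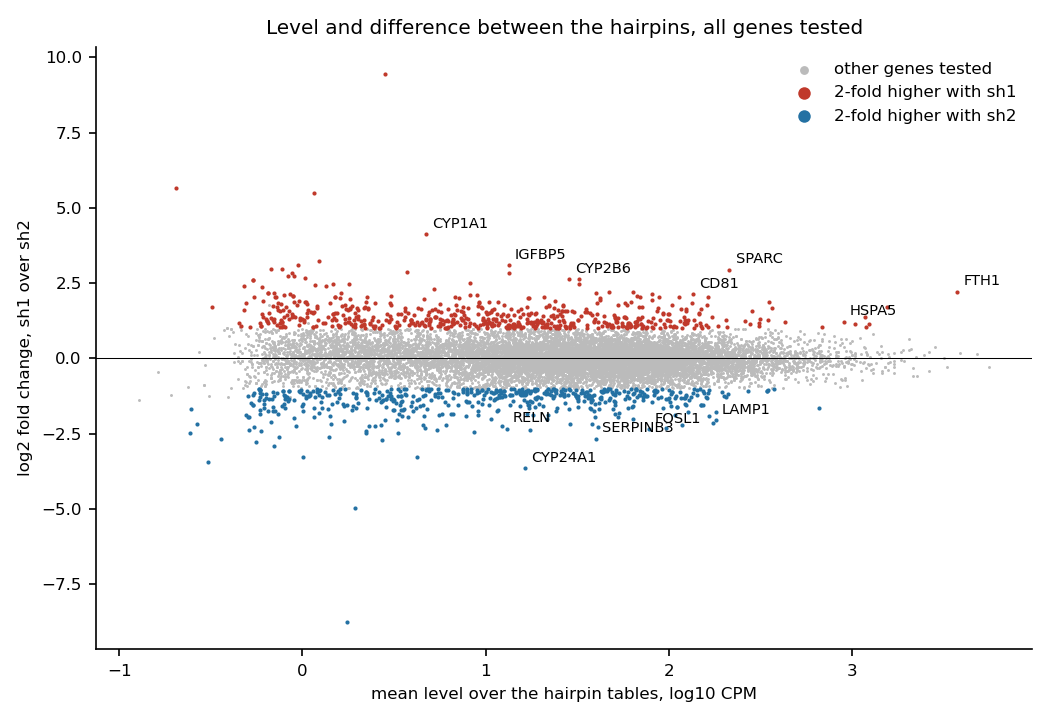
Each point is 1 of the 13580 genes tested, placed by its mean CPM over the 6 hairpin tables (x axis, log10) and its log2 fold change of sh1 over sh2 (y axis). Red points are the 594 genes at least 2-fold higher with sh1 and blue points the 530 at least 2-fold lower. Large differences occur at all levels, up to FTH1, and the points beyond a log2 value of 5 all lie at low CPM.

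IGFBP5, SPARC and S100A7 led the 15 genes of greatest fold that were higher with sh1. These were taken from genes with a mean of at least 10 CPM over the hairpin tables. They also had to pass the test at 2-fold, with sh1 and sh2 tables that did not overlap. IGFBP5, which binds insulin-like growth factors outside the cell, was at 26.1, 23.4 and 22.4 CPM with sh1, at 2.63, 2.74 and 3.0 with sh2 and at 4.03, 4.12 and 3.17 in control. The control tables thus lay near sh2, and only sh1 stood far above (log2 fold change of sh1 over sh2 3.10 ± 0.112, SE). LTBP1, which holds latent TGF-beta in the matrix, was at 56.5, 56.9 and 55.0 CPM with sh1 and at 9.14, 9.83 and 7.86 with sh2, with control between them at 16.1, 16 and 15.4 (2.65 ± 0.066). PXDN, a peroxidase that crosslinks collagen IV, had 53.4, 54.8 and 55.2 CPM against 10.2, 8.77 and 10.7, and control again lay between, at 26.5 to 29.3 (2.46 ± 0.066).

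COL5A1, a fibrillar collagen chain, and EDIL3, a matrix protein that binds integrins, followed at 2.2 ± 0.05 and 2.19 ± 0.048. SPARC, a collagen-binding glycoprotein, had the next largest value after IGFBP5, 2.95 ± 0.033, and S100A7, the antimicrobial psoriasin, followed with 2.82 ± 0.12. CYP2B6, a drug-metabolising P450, was at 49.8, 48.8 and 48.7 CPM with sh1 and at 8.01, 7.34 and 8.18 with sh2 (2.64 ± 0.066), and its near-identical pseudogene may share reads with it. CD81, a tetraspanin, was at 214, 227 and 220 CPM with sh1 and at 49.6, 51.4 and 48.6 with sh2 (2.14 ± 0.046). Its control tables, at 112, 99.7 and 94.4 CPM, were at least 2-fold from either hairpin on average, above sh2 and below sh1. The other members of the 15 were FTH1, the ferritin heavy chain, BSCL2, the lipid droplet protein seipin, OAT, ornithine aminotransferase, the dynein light chain DYNLL2, the lysosomal protein LAMP3 and GLB1L2, with values from 2.05 to 2.22. Separate sh1 and sh2 tables and a passed test were conditions for entering the 15. Their largest adjusted p was 9.52e-19 (S100A7, edgeR's quasi-likelihood test, Benjamini-Hochberg adjusted).

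CYP24A1, SERPINB3 and BTBD10 led the 15 genes of greatest fold that were lower with sh1. FOSL1, a subunit of the AP-1 transcription factor, was at 24.8, 24.4 and 28.0 CPM with sh1 and at 123, 119 and 149 with sh2. Control stood at 153, 168 and 166 CPM, so sh2 lay close to control and sh1 far below (log2 fold change of sh1 over sh2 -2.34 ± 0.071). FAM83A, a signalling protein downstream of the EGF receptor, was at 44.1, 42.1 and 38.9 CPM with sh1, 193, 186 and 203 with sh2 and 352, 361 and 365 in control (-2.22 ± 0.043). FGFBP1, which releases fibroblast growth factors from the matrix, had 8.42, 9.62 and 8.01 CPM against 33.9, 37.3 and 33.1, below 60.9 to 66.7 in control (-2.00 ± 0.079). For both of these genes, the sh1 and sh2 means were below the control mean, with sh1 the lower.

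Other genes of the 15 were below control with sh1 and above control with sh2. DNAJC8, a J-domain protein associated with splicing, was at 34.3, 30.8 and 31.5 CPM with sh1 and at 165, 154 and 160 with sh2, around 109 to 119 in control (-2.31 ± 0.046). TWF1, the actin monomer-binding protein twinfilin, was at 63.7, 65.0 and 64.8 CPM with sh1 and at 295, 289 and 275 with sh2, around 208 to 210 in control (-2.15 ± 0.035). RELN, which encodes the secreted glycoprotein reelin, was at 4.28, 3.86 and 4.82 CPM against 23.4, 20.5 and 21.2, with control at 11.4 to 12.5 (-2.33 ± 0.10). In these 3 genes the control mean lay between those of the hairpins. BTBD10 (-2.38), RWDD4 (-2.27), ARL6IP6 (-2.16), the lysosomal membrane protein LAMP1 (-2.06) and MRPS35, a mitochondrial ribosomal protein (-2.01), showed the same order of group means, as did LGALS9C (-2.25). The remainder of the 15 were CYP24A1, the vitamin D-degrading enzyme (-3.63), and the serpins SERPINB3 and SERPINB4. LGALS9C shares most of its sequence with other galectin-9 genes, and the sum over LGALS9, LGALS9B and LGALS9C differed by -0.72. Chosen under the same conditions, these 15 had a largest adjusted p of 4.93e-18 (LGALS9C, edgeR's quasi-likelihood test, Benjamini-Hochberg adjusted).

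**Figure D2:**
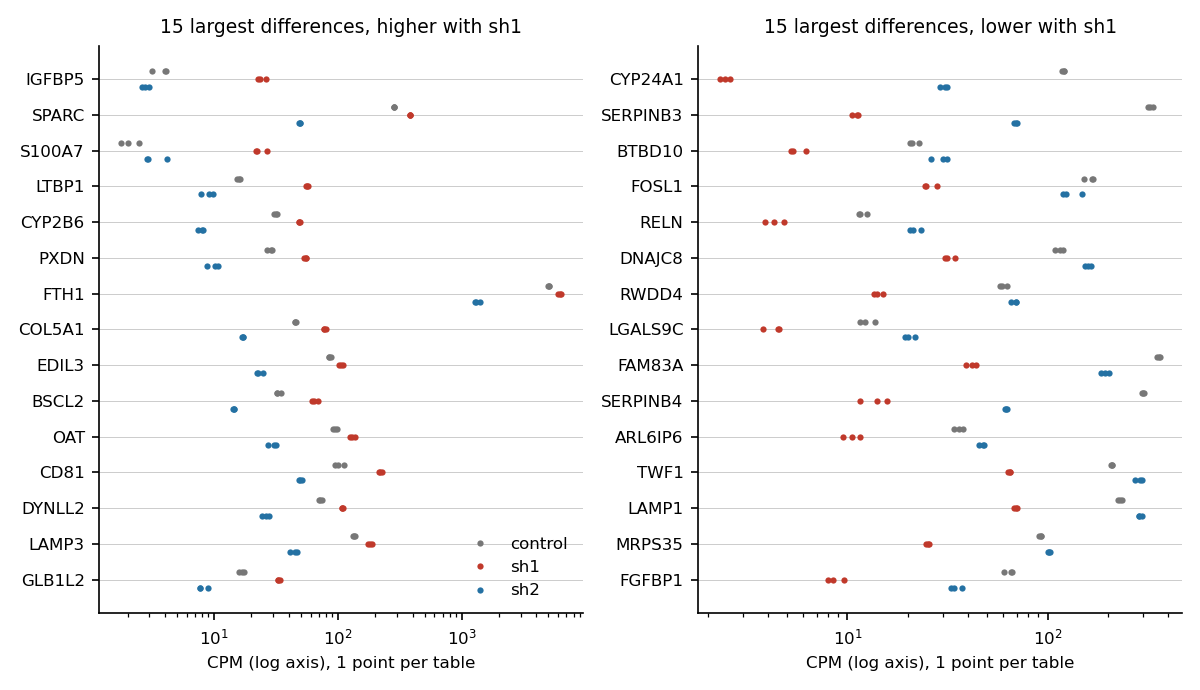
The 15 genes of greatest fold in each direction, with CPM on a log axis and 1 point for each of the 3 tables of control (grey), sh1 (red) and sh2 (blue). The sh1 and sh2 points of every gene stand apart, which was a condition of the choice. Control lies between them for genes such as PXDN and DNAJC8 but beyond sh2 for CYP24A1 and FAM83A.

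The position of the control showed which hairpin stood away from it. Among the 594 genes at least 2-fold higher with sh1, the control mean lay between the hairpins for 421, above both for 83 and below both for 90. It was within 0.5 (log2) of sh2 for 181 and within 0.5 of sh1 for 227. Among the 530 genes at least 2-fold lower with sh1, control lay between for 326, above both for 144 and below both for 60, with 247 within 0.5 of sh2 and 118 within 0.5 of sh1. These genes were chosen for a large difference between the hairpins, which favours a control between them. The same positions were not counted over all genes tested. Since both hairpins are also set against the same control tables, these positions are a description.

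At 8-fold or more, most of the 13 genes had few counts, and these were picked out after their values were seen. CYP1A1, the dioxin-inducible P450, had 134, 122 and 137 expected counts with sh1, 8, 6 and 10 with sh2 and 5, 7 and 11 in control. LRRC55 had 37, 31 and 32 with sh1, 2, 0 and 0 with sh2 and 0, 3 and 0 in control. CALCR, the calcitonin receptor, had 52, 79 and 49 with sh2, 0, 2 and 3 with sh1 and 3, 5 and 6 in control. XCR1, a chemokine receptor, had 34, 34 and 31 with sh1, 0, 5 and 6 with sh2 and 1, 6 and 5 in control. In each of these genes 1 hairpin stood far above control, while the other was within a few counts of it.

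HOXD9, a homeobox gene, had 23, 26 and 26 expected counts with sh1 and 2, 6 and 1 with sh2, and STARD8 4, 2 and 2 with sh1 and 23, 34 and 30 with sh2. Other genes past 8-fold had reads that cannot be assigned with certainty. SULT1A3, a sulfotransferase with a near-identical copy, was listed at 124.68, 0 and 124.68 expected counts with sh1 and at 0 in all sh2 tables, but also at 0 in the second control table. Summed with SULT1A4 it was at 72.3 ± 4.03 CPM with sh1 and 62.1 ± 1.71 with sh2 (SD), a log2 ratio of 0.22. FSBP was at 0 in all sh1 tables and at 37.89, 33.26 and 95.41 expected counts with sh2, and its sum with the overlapping gene RAD54B was 30.6 ± 0.849 CPM with sh1 and 30 ± 1.73 with sh2. The single-gene values of SULT1A3 and FSBP are therefore uncertain. FSBP was the 1 gene with 0 counts in every table of sh1 and at least 10 in each of sh2, and 0 genes had the reverse.

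Where abundance is concerned, the gene of greatest TPM difference was FTH1, at 12200 TPM with sh1 and 2580 with sh2. The endoplasmic reticulum (ER) lectin chaperone CALR stood at 2150 against 967 TPM, and TMBIM6, an ER membrane protein that limits cell death, at 1190 against 536. GPX2, a glutathione peroxidase of epithelia, was at 347, 369 and 381 CPM with sh1 and at 152, 154 and 159 with sh2, around 258 to 268 in control (log2 fold change 1.24 ± 0.033). Its control mean lay between those of the hairpins.

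TUBA1C, an alpha tubulin, was at 888 against 377 TPM, but the sum of TUBA1A, TUBA1B and TUBA1C differed by only 0.43 on the log2 scale. Among the genes of greatest TPM difference that were lower with sh1, TMSB4X, which sequesters actin monomers, was at 78.3, 79.1 and 77.4 CPM with sh1, 233, 229 and 225 with sh2 and 239 to 269 in control (-1.55 ± 0.039). NACA, a subunit of the complex that meets nascent chains at the ribosome, was at 488 against 1030 TPM (-1.07 ± 0.034). BANF1, which binds DNA at the nuclear envelope, was at 57.0, 53.8 and 54.7 CPM against 162, 163 and 181 (-1.61 ± 0.043), and BZW1, a regulator of translation initiation, at 245, 257 and 247 against 523, 522 and 470 (-1.02 ± 0.034). For BZW1 the sh1 tables were just below control, at 258 to 264 CPM, and sh2 stood far above. LTAP1 (Entrez gene 25912), at 108 against 362 TPM, differed by -1.78 ± 0.035. Processed copies of FTH1 and TMSB4X in the genome may share reads with them.

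For pathways, 63 gene lists with 1244 entries were counted, 1205 of them tested. The medians of 4 lists were at or above 0.3, those of 10 at or below -0.3 and those of 49 between, where the median of all genes tested was 0.00. These lists were described by counts and medians alone. Each count is to be read beside the shares of all genes tested, 34.2% higher with sh1 and 35.6% lower. At 2-fold these shares were 4.37% and 3.9%. Counts near these shares are no result about the list.

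**Figure D3:**
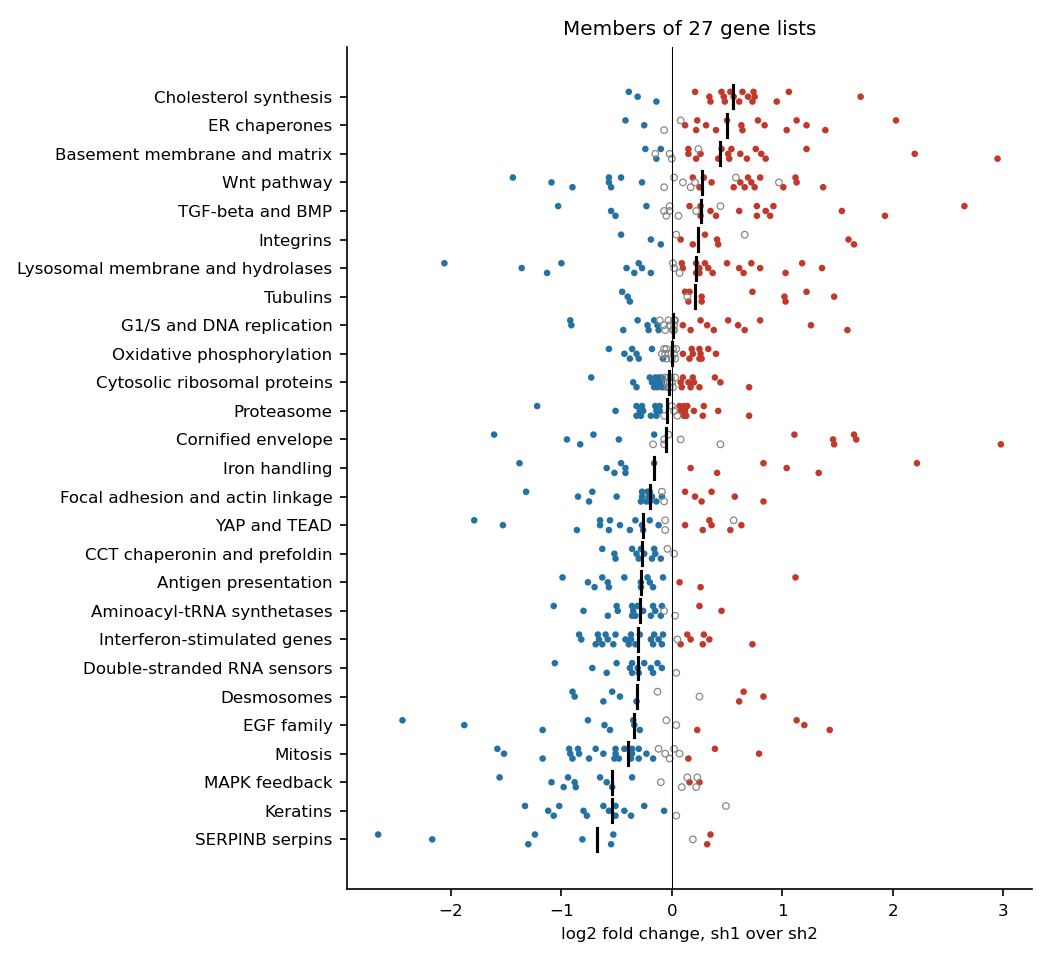
Log2 fold change of sh1 over sh2 (x axis) for the tested members of 27 lists, ordered by the list median (black bar). Red and blue points passed the test as higher or lower with sh1, and open points did not. Cholesterol synthesis, at a median of 0.55, and ER chaperones, at 0.50, are at the top of the lists drawn, and the SERPINB serpins, at -0.68, at the bottom.

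The folding machinery of the ER was higher with sh1 across most of its members. Chaperones such as HSPA5 and HSP90B1 hold unfolded secretory proteins, CALR and CANX retain glycoproteins through their sugars, and the PDIA enzymes form disulfide bonds. Of 19 ER chaperones and foldases, 15 were higher with sh1, 2 were lower and 2 did not pass, beside 34.2% and 35.6% of all genes. Their median was 0.50, and 5 were at least 2-fold higher.

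HYOU1, a large HSP70 relative of the ER, had the largest difference, with 261, 262 and 270 CPM with sh1 and 63.9, 62.3 and 68.0 with sh2, around 162 to 168 in control (log2 fold change 2.03 ± 0.036). CANX was at 1750, 1710 and 1680 CPM with sh1 and at 649, 660 and 651 with sh2 (1.39 ± 0.025). HSPA5, the BiP chaperone, was at 1260 CPM in each sh1 table and at 538, 557 and 535 with sh2 (1.22 ± 0.026). For these 3 genes the control mean lay between those of the hairpins. CALR, at 1710 CPM in each sh1 table and 773, 769 and 801 with sh2 (1.13 ± 0.024), and HSP90B1, at 2470 to 2510 against 1550 to 1650 (0.63 ± 0.024), were above control with either hairpin. PDIA6 differed by 1.04 ± 0.028 and PDIA4 by 0.84 ± 0.03. Members against the direction were P4HB, the best known disulfide isomerase, at 383, 377 and 378 CPM with sh1 and 509, 504 and 509 with sh2 (-0.42 ± 0.026), and the prolyl isomerase FKBP2 (-0.25 ± 0.064). PPIB, another prolyl isomerase, did not pass (-0.07).

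Regulators of the unfolded protein response did not share that direction. Of 10 sensors and factors, 3 were higher with sh1, 5 lower and 2 did not pass, with a median of -0.09. ATF6, the membrane-tethered factor, was at 137 CPM in each sh1 table and at 94.1, 93.4 and 96.8 with sh2 (0.53 ± 0.034), and its relative ATF6B differed by 0.80. MBTPS2, the protease that releases ATF6 and the sterol factors from the membrane, was at 21.5, 21.5 and 20.2 CPM with sh1 and at 55.6, 57.7 and 52.8 with sh2 (-1.39 ± 0.054). XBP1 (0.06) and DDIT3 (-0.06) did not pass. Of the 20 genes for the translocon and glycosylation, 11 were higher and 5 lower (median 0.20), and of the COPII and COPI coats 7 and 13 of 20 (median -0.15). SEC23A, a COPII coat subunit, went against its list, at 81.4, 80.5 and 83.5 CPM with sh1 and 24.8, 24.0 and 22.6 with sh2 (1.78 ± 0.047), with control between.

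The promoters of ER chaperones hold a known response element, CCAAT, 9 bases of any kind, then CCACG, bound by NF-Y and ATF6. The RefSeq promoter table (GRCh38.p14) had an entry for 11061 of the genes tested. The 250 bases before the first listed start of each were searched on both strands, and other starts were not. The element was found in 15 of these genes (0.136%) and in 6 of the 18 ER chaperones with an entry (33.3%). The 6 were HSPA5, HSP90B1, CALR, CANX, CRELD2 and ERO1B, all higher with sh1, with a median of 0.88 beside 0.22 for the 12 without the element. Outside that list, TMEM120A (0.87), ALG12 (0.67) and TRIM5 (0.59) held it and were higher, SERP1 by 0.14, whereas EIF2A was lower (-0.21) and XBP1, FICD, ZNF17 and FRG2C did not pass. A match is a description of letters and not of binding. To show the element, 3 windows are printed, taken from list members with a single listed start that were higher with sh1. They read in the direction of the gene, 25 bases to each side, with the element in capitals. In CALR and CRELD2 it lies on the opposite strand and reads as its reverse complement.
HSPA5, chr9:125241366-125241434, minus strand: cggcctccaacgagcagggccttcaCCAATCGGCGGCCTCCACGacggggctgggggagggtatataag
CALR, chr19:12938359-12938427, plus strand: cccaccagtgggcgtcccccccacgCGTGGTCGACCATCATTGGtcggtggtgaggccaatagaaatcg
CRELD2, chr22:49918529-49918597, plus strand: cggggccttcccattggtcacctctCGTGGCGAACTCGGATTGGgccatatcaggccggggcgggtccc

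**Figure D4:**
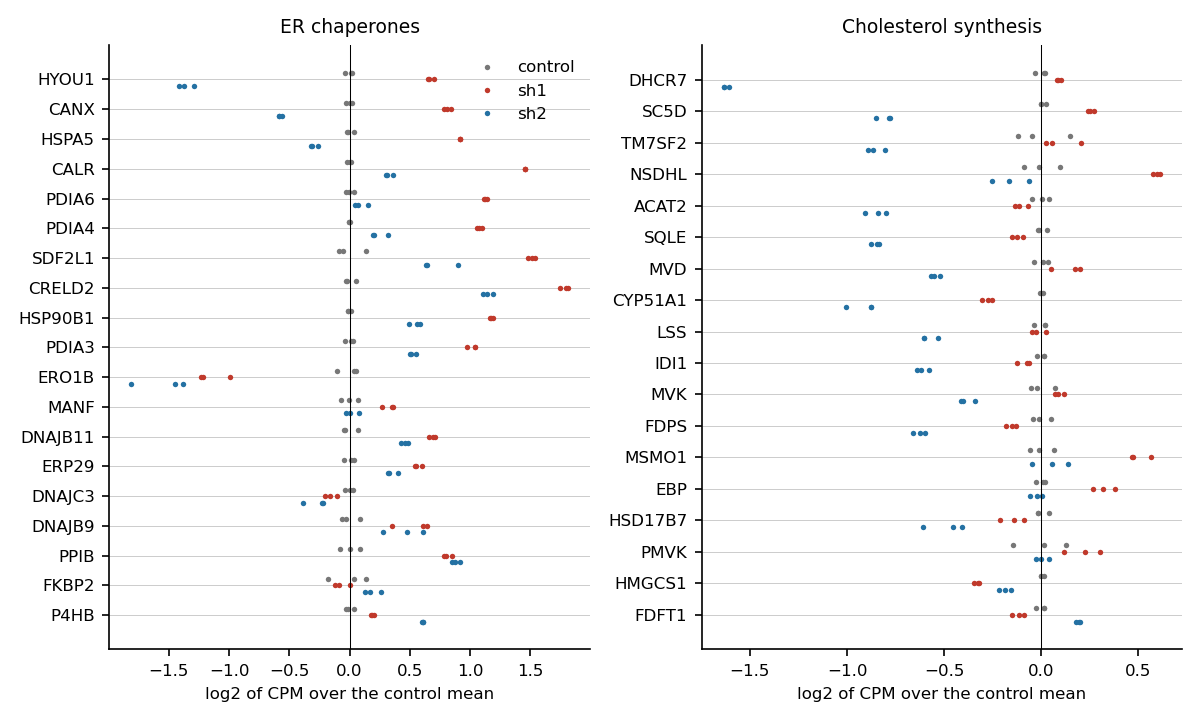
Members of the ER chaperone list (left) and the cholesterol synthesis list (right), as log2 of CPM over the control mean, with 1 point for each table of control (grey), sh1 (red) and sh2 (blue). Most chaperones lie right of control with sh1, while most sterol genes lie near control with sh1 and left of it with sh2, and some sterol genes are not drawn.

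Sterol synthesis was higher with sh1 in 17 of 20 enzymes and lower in 3, with a median of 0.55, the highest of the 63 lists. Its enzymes build cholesterol from acetyl-CoA and are transcribed by SREBF2. DHCR7, the last enzyme of one branch, had the largest difference (1.71 ± 0.024). SC5D, the desaturase before it, was at 142, 143 and 145 CPM with sh1 and at 69.8, 70.0 and 66.6 with sh2 (1.06 ± 0.035). SQLE, the squalene epoxidase, was at 536, 558 and 547 against 332, 334 and 324 CPM (0.73 ± 0.027). In SC5D and SQLE the sh2 tables were the ones further from control, which stood at 120 to 122 and 588 to 608 CPM. Among the lower enzymes were FDFT1, the squalene synthase (-0.31), and HMGCS1, which makes the substrate of the mevalonate pathway (-0.14).

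SREBF2 itself was at 418, 412 and 418 CPM with sh1 and at 256, 247 and 266 with sh2, with control at 435 to 449 (0.70 ± 0.029). INSIG2, which retains the sterol sensor in the ER, was lower with sh1 (-1.32 ± 0.099), and INSIG1 did not pass (0.01). The cholesterol exporter ABCA1 was at 27.7, 28.7 and 27.8 CPM with sh1 and at 10.1, 9.96 and 9.33 with sh2, above 5.34 to 6.64 in control (1.52 ± 0.076). Of the 15 fatty acid genes 6 were higher and 7 lower (median -0.07), with ACSL4, an arachidonate-activating enzyme, at 62.8 CPM with sh1 and 143 with sh2 (-1.19), and ACLY, which supplies cytosolic acetyl-CoA, at -0.91.

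Iron genes differed in either direction. Of 13 tested, 6 were higher with sh1 and 7 lower. TFRC, the transferrin receptor, was at 1600 CPM in each sh1 table and at 794, 796 and 741 with sh2, around 982 to 1040 in control (1.04 ± 0.027). STEAP3, the endosomal ferrireductase, was at 82.9, 83.4 and 84.4 against 32.3, 32.3 and 35.0 CPM (1.33 ± 0.044), and SLC11A2, the endosomal iron transporter, at 210, 212 and 212 against 120, 120 and 117 (0.83 ± 0.031). The tables of these 3 uptake genes did not overlap between the hairpins, as for 71.9% of all genes tested. HMOX1, which releases iron from heme, was lower, at 25, 26.4 and 26.9 CPM with sh1, 66.1, 69.6 and 68.0 with sh2 and 24.5 to 25.5 in control (-1.38 ± 0.048). The ferritin light chain FTL differed by 0.17, far less than the 2.22 ± 0.029 of the heavy chain FTH1, and the iron exporter SLC40A1 by -0.42.

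Lysosomal genes moved in either direction, 17 higher and 9 lower of 29, with 3 at least 2-fold higher, 3 at least 2-fold lower and a median of 0.22. The acid lipase LIPA was at 171, 177 and 174 CPM with sh1 and at 71.1, 65.8 and 67.1 with sh2 (1.36 ± 0.036), and the thioesterase PPT1 at 275, 284 and 276 against 139, 137 and 133 (1.03 ± 0.032). By contrast HEXA, a subunit of beta-hexosaminidase, was at 37.7, 37.9 and 37.5 CPM with sh1 and at 84.0, 83.4 and 79.5 with sh2 (-1.13 ± 0.043), and NEU1, the lysosomal sialidase, differed by -1.0 ± 0.072. The sh1 and sh2 tables of these 4 genes did not overlap, which held for 71.9% of all genes tested. SQSTM1, an autophagy receptor, was at 685 against 1140 CPM (-0.73), with 8 autophagy genes higher and 7 lower of 21.

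Matrix and basement membrane genes were mostly higher with sh1, 17 of 24, with 3 lower, 4 that did not pass and a median of 0.44. They make the sheet that epithelial cells rest on. LAMC1, a laminin chain, was at 1010, 982 and 1010 CPM with sh1 and at 597, 578 and 602 with sh2 (0.76 ± 0.025). COL4A2 was at 31.2, 27.1 and 24.2 against 11.2, 12.3 and 11.8 CPM (1.22 ± 0.09), and its partner COL4A1 differed by 0.85 ± 0.063. COL4A1 was at 32.2, 33.0 and 32.4 CPM with sh1 and at 19.0, 16.6 and 18.5 with sh2, the latter near the 18.0 to 19.2 of control. The lower members were LAMA4 (-0.24), LAMA5 (-0.14) and LAMB2 (-0.10). Beside these, the summed TPM of the 9 fibroblast markers was 25.8 to 29.9 with sh1 and 29.8 to 31.0 with sh2. Most of it was COL1A1, at 22.4 TPM with sh1 and 27.2 with sh2, while FAP went the other way, at 4.90 against 2.80. The part of fibroblast markers in the result was not tested. The defining fibroblast genes PDGFRA, PDGFRB, DCN, LUM and THY1 were each under 1 TPM in both.

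Integrins and their linkers differed in opposite ways. Of 12 integrins 7 were higher with sh1 and 3 lower (median 0.24), of 24 focal adhesion genes 6 and 16 (median -0.20). Among all genes tested 34.2% were higher and 35.6% lower. ITGB5 was at 37.6, 36.5 and 37.7 CPM with sh1 and at 11.8, 12.8 and 12.1 with sh2, around 20.5 to 21.6 in control (1.60 ± 0.064). Its partner ITGAV, at 235, 228 and 224 CPM with sh1, lay close to control (221 to 225) and at 74.6, 73.5 and 70.1 with sh2 (1.65 ± 0.035). ITGB4, the hemidesmosome integrin, was lower with sh1 (-0.46). TLN1, which couples integrins to actin, was at 95.0, 89.5 and 95.2 CPM with sh1, 230, 230 and 237 with sh2 and 255 to 268 in control (-1.32 ± 0.034), and ZYX, zyxin, differed by -0.85 ± 0.046. The nonmuscle myosin MYH10 was at 55.8, 49.7 and 54.6 CPM with sh1, near the 47.4 to 52.4 of control, and at 19.2, 17.9 and 17.8 with sh2 (1.54 ± 0.06). In ITGAV and MYH10 it was therefore sh2 that differed from control, and in TLN1 mainly sh1.

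In the TGF-beta and BMP pathway, 14 of 25 genes were higher with sh1 and 4 lower (median 0.26). TGFBR2, the receptor that binds TGF-beta, was at 123, 130 and 131 CPM with sh1 and at 32.9, 33.5 and 34.2 with sh2, below 42.4 to 45.0 in control (1.93 ± 0.042). Its signalling partner TGFBR1 was at 14.5, 14.4 and 13.2 against 8.64, 8.09 and 6.07 CPM, both below 25.2 to 26.8 in control (0.89 ± 0.102). ID3, an inhibitor of differentiation factors and a known transcriptional target, went the other way, at 117, 124 and 125 CPM with sh1 and 171, 187 and 177 with sh2 (-0.55 ± 0.036). The tables of these 3 genes did not overlap between the hairpins, as for 71.9% of all genes tested. Of 30 Wnt genes 15 were higher and 8 lower (median 0.27), with the receptor FZD5 at 1.37, the antagonist DKK1 at 1.01 and the ligands WNT7A and WNT5A at -1.44 and -1.09. In the Notch list the ligand JAG1 was lower with sh1 (-1.03) and the Notch-modifying enzyme LFNG higher (1.27).

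Squamous keratins were lower with sh1, as were most SERPINB serpins. Keratins form the intermediate filaments of epithelia. Of 16 keratins 0 were higher, 14 were lower, 4 of them at least 2-fold, and 2 did not pass (median -0.54). KRT17, the most abundant of them by TPM, was at 1730, 1770 and 1700 CPM with sh1 and 2540, 2580 and 2600 with sh2, close to the 2630 to 2700 of control (-0.57 ± 0.023). KRT16, of activated keratinocytes, was at 24.2, 24.9 and 22.3 CPM with sh1, 59.1, 62.0 and 58.9 with sh2 and 77.6 to 81.1 in control (-1.33 ± 0.052). KRT14, of basal cells, was at 8.42, 7.79 and 8.21 against 18.0, 16.1 and 17.1 CPM, both below 33.7 to 34.6 in control (-1.07 ± 0.084). KRT13 differed by -1.12, KRT6B by -1.02 and the simple keratin KRT8 by only -0.07, while KRT5 (0.04) and KRT6C (0.49, under 1 CPM) did not pass. Reads may be shared among related keratins: the sum of KRT14, KRT16 and KRT17 differed by -0.59 and that of the keratin 6 genes by -0.63. The summed TPM of the 11 squamous markers, given above, was lower with sh1, and it includes KRT5, KRT6A, KRT14 and KRT17. Its members were divided. KRT17 (2680 against 3920 TPM), SFN (787 against 1280), KRT6A, KRT14, TP63 and DSG3 had a lower mean with sh1. EPCAM (928 against 657 TPM), CDH1 (320 against 216), SOX2 (47.6 against 32.7), KRT5 and PKP1 had a higher one.

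Of 10 SERPINB genes, a family of intracellular protease inhibitors, 7 were lower with sh1, 4 of them at least 2-fold, and 2 were higher (median -0.68, the lowest but 1 of the lists). SERPINB1, which inhibits neutrophil elastase, was at 61.4, 62.9 and 62.7 CPM with sh1 and 157, 151 and 153 with sh2, below 306 to 329 in control (-1.30 ± 0.039). SERPINB13 was at 19.2, 18.2 and 18.3 against 44.3, 44.3 and 43.0 CPM (-1.24 ± 0.056). SERPINB3 with SERPINB4, near-identical neighbours, summed to 24.8 ± 2.16 CPM with sh1, 131 ± 1.91 with sh2 and 627 ± 8.66 in control (SD). SERPINB5, maspin (0.35), and SERPINB7 (0.32) were higher with sh1.

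Late differentiation and cell junctions gave no common direction. Of 18 cornified envelope genes 6 were higher, all of them at least 2-fold, 6 were lower and 6 did not pass (median -0.05). IVL, involucrin, the early envelope precursor, was at 9.57, 9.48 and 8.35 CPM with sh1 and 27.4, 26.7 and 29.8 with sh2, both above 1.58 to 2.08 in control (-1.61 ± 0.081). CSTA, a cysteine protease inhibitor of the envelope, was at 133, 144 and 130 CPM with sh1 and 49.8, 50.3 and 47.3 with sh2, below 181 to 196 in control (1.47 ± 0.045). SBSN, suprabasin, was at 8.69, 9.75 and 9.91 against 2.82, 2.49 and 3.71 CPM (1.65 ± 0.144), whereas SPRR2D, SPRR1A and SPRR2A, at 2.98, 1.67 and 1.46, were all under 6 CPM. SPRR1A may share reads with SPRR1B, and their sum was 4.41 ± 0.183 CPM with sh1 and 3.21 ± 0.147 with sh2 (SD), a log2 ratio of only 0.46.

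Of 11 desmosome genes 6 were lower with sh1 and 3 higher (median -0.32). JUP, plakoglobin, was at 644, 644 and 664 CPM with sh1 and 1190, 1190 and 1270 with sh2 (-0.90 ± 0.027), and DSG2, a desmosomal cadherin, at 262, 272 and 259 against 492, 490 and 478 (-0.88 ± 0.028). Its fellow cadherin DSC2 went the other way, at 173, 171 and 172 CPM with sh1 and 97.0, 97.6 and 94.7 with sh2 (0.83 ± 0.032), as did DSP, desmoplakin, which links desmosomes to keratin (0.65 ± 0.026). GJA1, a gap junction protein, was at 176 against 56.1 CPM (1.65) and E-cadherin, CDH1, at 647 against 444 (0.54).

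Genes of the EGF family and of MAPK feedback were more often lower than higher with sh1. Of 15 EGF family genes 9 were lower and 4 higher (median -0.34). EPGN, epigen, was at 2.71, 2.24 and 3.12 CPM with sh1, 15.3, 15.1 and 13.6 with sh2 and 25.3 to 26.9 in control (-2.44 ± 0.119). EREG, epiregulin, was at 7.26, 8.74 and 7.33 against 27.8, 29.9 and 28.1 CPM, with 88.2 to 92.1 in control (-1.88 ± 0.078), and TGFA at 13, 13.3 and 13.5 against 30.6, 30 and 28.8 (-1.17 ± 0.07). For all 3 ligands the mean was lowest with sh1, higher with sh2 and highest in control. EGF itself was higher with sh1, at 14.3, 15.3 and 14.6 CPM against 5.95, 6.84 and 7.42 (1.13 ± 0.106), as were LRIG1, a negative regulator of the receptors, at 26.7, 22.9 and 26.1 against 9.64, 9.15 and 9.40 (1.43 ± 0.079), and ERBB4, near 1 CPM or below (1.2 ± 0.38).

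Of 17 MAPK feedback genes, among them phosphatases and ETS factors that MAPK signalling induces, 10 were lower and 2 higher with sh1 (median -0.54). DUSP6, an ERK phosphatase, was at 8.82, 7.04 and 7.26 CPM with sh1, 14.1, 15.4 and 16.2 with sh2 and 42.4 to 44.5 in control (-0.98 ± 0.094). DUSP1 differed by -1.09 ± 0.074, DUSP4 by -0.94 ± 0.06, ETV5 by -1.56 ± 0.148 and ETV4 by -0.87 ± 0.084. The higher members were SPRED2 (0.25) and DUSP14 (0.16). Immediate early genes were divided, with 15 lower and 7 higher of 25, and the growth arrest gene BTG2 at 41.8, 39.7 and 40.9 CPM with sh1 and 12.5, 11.8 and 11.1 with sh2 (1.79 ± 0.064). Of 23 YAP and TEAD genes 14 were lower and 6 higher (median -0.26). F3, tissue factor, was at 57.2, 58.5 and 56.0 CPM with sh1, 203, 197 and 194 with sh2 and 371 to 386 in control (-1.79 ± 0.036).

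Inflammatory genes differed gene by gene. IL1B was at 11.1, 10.2 and 12.1 CPM with sh1, 37.1, 37.8 and 38.0 with sh2 and 109 to 116 in control (-1.76 ± 0.068), and TNFAIP2, an NF-kB target, at 598, 573 and 585 against 1020, 1050 and 1030 (-0.82 ± 0.025). CCL20, which draws CCR6-bearing cells, went the other way, at 38.0, 44.0 and 39.2 CPM with sh1 and 18.3, 18.1 and 18.4 with sh2, both below 138 to 150 in control (1.14 ± 0.066), as did CXCL10, at 124, 128 and 130 against 58.8, 52.5 and 48.4 (1.26 ± 0.046). Of 21 cytokines and chemokines tested 10 were higher and 5 lower (median 0.19), and of 18 NF-kB factors and feedback genes 2 were higher and 11 lower (median -0.25).

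Most mitotic genes were lower with sh1, whereas genes of DNA replication went either way. Mitotic transcripts peak in G2 and M. Of 32 mitosis genes 24 were lower with sh1, 3 were higher and 5 did not pass (median -0.40). CCNA2, cyclin A, was at 63.2, 61.6 and 66.1 CPM with sh1 and 186, 174 and 186 with sh2, around 85.5 to 91.9 in control (-1.52 ± 0.039). ECT2, needed for cytokinesis, was at 49.5, 57.0 and 48.7 against 162, 153 and 149 CPM, with 124 to 126 in control (-1.58 ± 0.045), and the kinetochore gene NDC80 at 133, 127 and 128 against 291, 299 and 283, with 149 to 161 in control (-1.17 ± 0.033). These 3 lay below control with sh1 and above it with sh2. For CDC20, the activator of the anaphase-promoting complex, both hairpins were above the 96.4 to 108 CPM of control, with 126, 134 and 120 with sh1 and 223, 228 and 231 with sh2 (-0.84 ± 0.038). Members against the direction were the securin PTTG1, at 94.4, 94.0 and 98.7 against 55.1, 56.7 and 53.7 CPM (0.79 ± 0.04), MAD2L1 (0.39) and HMMR (0.15).

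**Figure D5:**
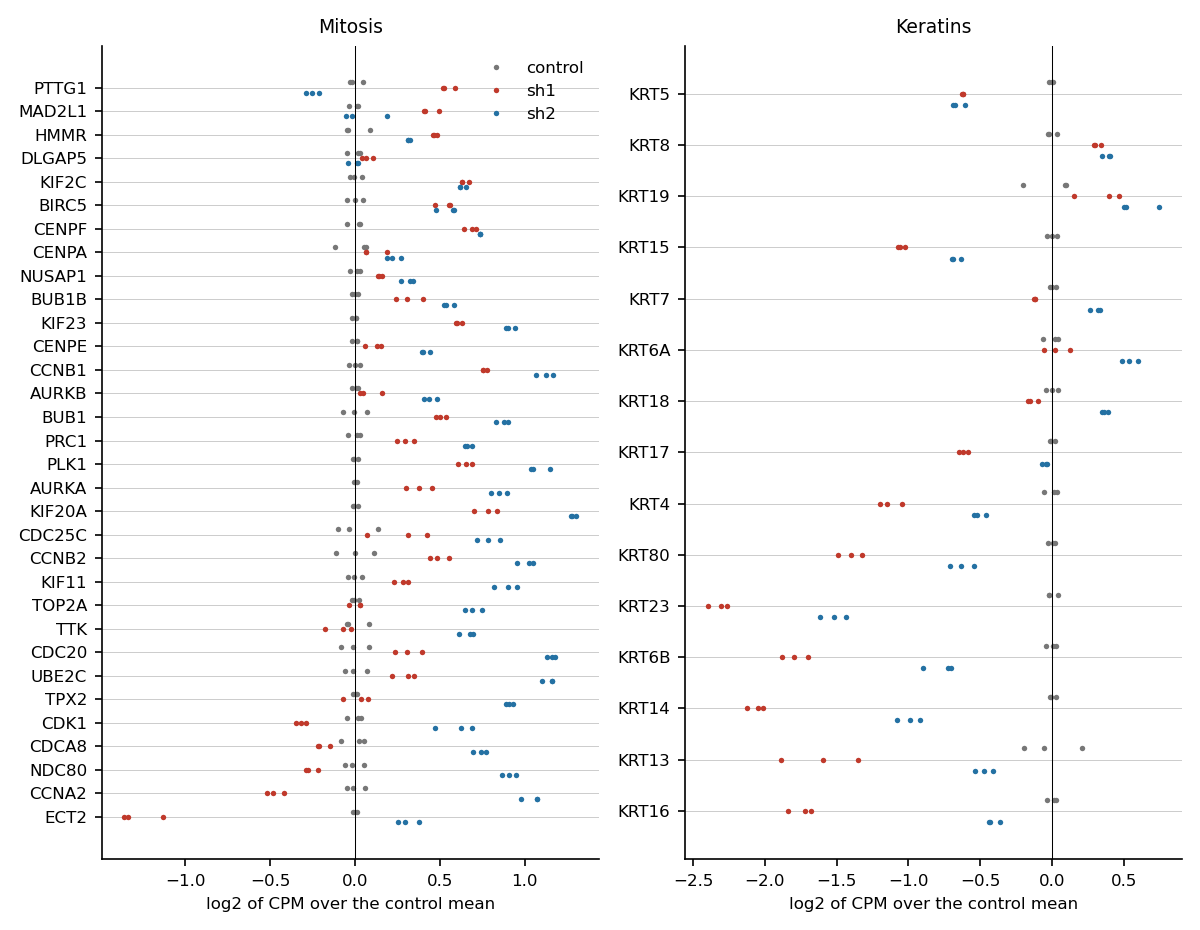
Members of the mitosis list (left) and the keratin list (right), as log2 of CPM over the control mean, with 1 point for each table of control (grey), sh1 (red) and sh2 (blue). KRT6C, with a table at 0, is left out. The sh2 points of most mitosis genes lie right of control and of sh1, and the sh1 points of most keratins lie furthest left.

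Of 30 genes for G1/S and DNA replication 11 were higher with sh1, 9 lower and 10 did not pass (median 0.01). The shares of all genes were 34.2% higher and 35.6% lower. The cyclin CCNE1 was at 44.9, 43.6 and 44.4 CPM with sh1, 13.8, 15.9 and 14.4 with sh2 and 11.1 to 13.6 in control (1.59 ± 0.066), and GINS1, of the replicative helicase, at 44.7, 47.5 and 44.0 against 18.6, 19.0 and 19.2 (1.26 ± 0.057). RRM1, a ribonucleotide reductase subunit, was lower with sh1, at 45.7, 50.7 and 45.1 against 91.7, 85.2 and 89.4 CPM (-0.91 ± 0.048). Among p53 targets, 10 of 20 were higher and 5 lower (median 0.08), with MDM2, the ligase that degrades p53, at 148 against 71.5 CPM (1.05).

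Many G2 and M promoters carry the cell cycle homology region, TTTGAA, through which the DREAM and MMB complexes act. It was searched in the same 250 bases on both strands. It was found in 967 of 11061 promoters (8.74%) and in 14 of the 27 mitosis genes with an entry (51.9%). Of those 14, 11 were lower with sh1 and 1 higher, with a median of -0.47 beside -0.36 for the 13 without it. The windows of CDCA8, a chromosomal passenger protein (-0.93), CDC20 (-0.84) and TOP2A, a topoisomerase (-0.69), are printed to show it, with the hexamer in capitals. They were taken from list members with a single listed start that were lower with sh1.
CDCA8, chr1:37692468-37692515, plus strand: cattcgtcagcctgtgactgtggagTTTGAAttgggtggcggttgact
CDC20, chr1:43358891-43358946, plus strand: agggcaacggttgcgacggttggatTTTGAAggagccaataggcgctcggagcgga
TOP2A, chr17:40418060-40418115, minus strand: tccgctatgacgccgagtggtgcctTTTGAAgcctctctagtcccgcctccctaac

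Antiviral genes were lower with sh1 than with sh2. Sensors such as EIF2AK2 and the OAS enzymes bind double-stranded RNA, and interferon induces them together with effectors such as the IFIT proteins. Of 15 sensors 0 were higher with sh1, 14 lower and 1 did not pass (median -0.31). OAS1 was at 222, 232 and 225 CPM with sh1 and 474, 471 and 465 with sh2, around 264 to 273 in control (-1.06 ± 0.028). TLR3, the endosomal sensor, was at 37.5, 37.6 and 33.9 against 52.8, 56.5 and 54.8 CPM, with 37.1 to 39.1 in control (-0.59 ± 0.05), and EIF2AK2, PKR, differed by -0.50 ± 0.031.

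Of 30 interferon-stimulated genes 22 were lower and 7 higher (median -0.31), and 0 reached 2-fold. RSAD2, viperin, was at 84.7, 79.7 and 81.0 CPM with sh1 and 146, 147 and 145 with sh2, above 51.5 to 59.3 in control (-0.84 ± 0.039). IFI44L was at 327, 327 and 329 against 528, 541 and 522 CPM, with sh1 at the level of control, 326 to 337 (-0.69 ± 0.027). HERC6, a ubiquitin ligase, went the other way, at 290, 295 and 285 against 172, 171 and 182 CPM (0.73 ± 0.031), as did IFITM1 (0.29) and IFI27 (0.34). The core of the interferon response element, GAAA, 2 bases of any kind, then GAAA, was in 271 of 11061 promoters (2.45%) and in 13 of the 23 listed genes with an entry (56.5%). Of those 13, 4 were higher and 8 lower with sh1, with a median of -0.19 beside -0.46 for the 10 without it.

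Antigen presentation genes were lower with sh1 in 13 of 16 and higher in 3 (median -0.28). B2M, the light chain of class I molecules, was at 1750, 1890 and 1840 CPM with sh1 and 2680, 2790 and 2650 with sh2, with 1520 to 1650 in control (-0.57 ± 0.029). The immunoproteasome subunit PSMB9 was at 74.5, 83.8 and 75.5 against 148, 159 and 157 CPM (-0.99 ± 0.046). ERAP1, which trims peptides, was higher with sh1, at 194, 189 and 193 against 87.1, 88.0 and 90.5 (1.12 ± 0.033).

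The machinery that processes hairpins differed little. Of 15 RNA interference genes 5 were higher with sh1, 4 lower and 6 did not pass, with a median of 0.08 and 0 at 2-fold. The shares of all genes were 34.2% higher and 35.6% lower. DICER1 was at 198, 195 and 197 CPM with sh1 and 166, 169 and 166 with sh2 (0.23 ± 0.03), and XPO5, which exports hairpins from the nucleus, at 128, 131 and 127 against 111, 118 and 114 (0.17 ± 0.034). DGCR8, the partner of DROSHA in the nucleus, had the largest difference (0.47 ± 0.038), and DROSHA itself was lower with sh1 (-0.30 ± 0.032). AGO2, the slicing Argonaute, differed by -0.22 with overlapping tables.

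Most housekeeping machines were near the transcriptome median, with single members that stood out, but mitochondrial ribosomal proteins were mostly lower with sh1. Of 36 cytosolic ribosomal proteins 11 were higher with sh1, 15 lower and 0 reached 2-fold (median -0.03). The extremes were RPL4, at 838, 870 and 855 CPM with sh1 and 1420, 1460 and 1370 with sh2 (-0.73 ± 0.027), and RPS14, at 437, 470 and 449 against 272, 283 and 281 (0.70 ± 0.031). Of 29 oxidative phosphorylation genes 10 were higher and 8 lower (median 0.00), of 30 proteasome genes 12 and 14 (median -0.04). PSMD6, a proteasome lid subunit, was at 41.6, 44.2 and 38.8 against 95.7, 97.4 and 98.3 CPM (-1.22 ± 0.045). Mitochondrial ribosomal proteins were lower in 15 of 23 and higher in 6 (median -0.26), with MRPL20 at 15.9, 16.3 and 17.1 against 63.9, 63.7 and 61.7 CPM (-1.94 ± 0.056) and MRPL15 at -1.25.

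Cytosolic folding and tRNA charging were lower with sh1. Of 14 CCT chaperonin and prefoldin genes, which fold actin and tubulin, 0 were higher and 12 lower (median -0.27), with CCT8 at 195, 202 and 200 against 308, 314 and 302 CPM (-0.63 ± 0.032). Of 20 aminoacyl-tRNA synthetases 16 were lower and 2 higher (median -0.29). WARS1, for tryptophan and induced by interferon, was at 217, 221 and 231 CPM with sh1, 454, 477 and 472 with sh2 and 688 to 719 in control (-1.07 ± 0.03), and LARS1, for leucine, was higher with sh1 (0.45). A pair of paralogous splicing factors differed in opposite directions: PTBP2 at 29.1, 29.1 and 28.2 CPM with sh1, at the 26.9 to 29.5 of control, and 93.5, 85.4 and 93.0 with sh2 (-1.65 ± 0.049), and PTBP1 at 452, 452 and 443, also at control (444 to 450), and 258, 266 and 264 with sh2 (0.77 ± 0.027). PTBP1 is known to repress PTBP2 by exon skipping. For both, it was sh2 that stood away from control.

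Nuclear receptor and xenobiotic genes held some of the largest single differences, with 3 of 10 higher, 6 lower and a median of -0.72. CYP24A1 was at 2.58, 2.44 and 2.31 CPM with sh1, 31.6, 29.1 and 30.6 with sh2 and 118 to 121 in control (-3.63 ± 0.096). The vitamin D receptor VDR, which induces it, was at 16.2, 15.3 and 15.7 against 25, 28.2 and 27.4 CPM, with 36.1 to 39.5 in control (-0.77 ± 0.069), and its partner RXRA at 99.8, 95.4 and 96.2 against 213, 214 and 221, with 217 to 233 in control (-1.15 ± 0.035). All 3 were thus lowest with sh1. AHR, the dioxin receptor, was at 220, 218 and 219 CPM with sh1, as in control (217 to 228), and at 119, 112 and 116 with sh2 (0.92 ± 0.033). Its target CYP1A1, shown above by counts, was higher with sh1, and another target, CYP1B1, was also higher (0.36), whereas the feedback genes TIPARP (-0.88) and AHRR (-0.67) were lower.

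Sugar metabolism and stress responses gave smaller differences, more often lower with sh1. Of 23 glycolysis genes 16 were lower and 4 higher (median -0.16), with the lactate transporter SLC16A1 at 112, 109 and 105 CPM with sh1, 208, 201 and 208 with sh2 and 229 to 234 in control (-0.92 ± 0.033). HIF1A, the oxygen-regulated factor, was at 458, 456 and 463 CPM with sh1 and 782, 767 and 770 with sh2, the latter within the range of control (-0.75 ± 0.026). Its relative EPAS1 went the other way, at 325, 311 and 317 against 160, 158 and 164 CPM, with sh1 near the 324 to 333 of control (0.98 ± 0.03). So sh1 stood away from control in HIF1A and sh2 in EPAS1. Of 20 NRF2 targets 11 were lower and 5 higher (median -0.21), with ME1, malic enzyme, at 89.5, 95.1 and 86.0 against 188, 187 and 177 CPM (-1.03 ± 0.037) and GCLM, a subunit of the glutathione-making ligase, at -0.75. Of 20 cytosolic heat shock genes 14 were lower and 3 higher (median -0.24): BAG3, a co-chaperone, differed by -1.10 ± 0.04, but the HSP110 chaperone HSPH1 by 1.07 ± 0.032.

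Genes of cell survival, proteolysis and the cell surface moved one by one. MCL1, which holds off apoptosis, was at 453, 440 and 442 CPM with sh1 and 687, 690 and 674 with sh2, with 701 to 712 in control (-0.62 ± 0.025). BCL2L11, which promotes it, was at 103, 105 and 105 against 59.3, 52.5 and 54.7 CPM, with 43.6 to 49.7 in control (0.91 ± 0.045). Of the 16 BCL2 family genes 5 were higher and 7 lower (median -0.07). The matrix metalloproteinase MMP7 was at 21.8, 19.7 and 21.0 CPM with sh1 and 52.1, 50.6 and 53.1 with sh2, both above 10.1 to 11.7 in control (-1.32 ± 0.056), and the sheddase ADAM9 at 495, 508 and 521 against 281, 278 and 281 (0.86 ± 0.028). MUC16, a membrane mucin, was at 67.3, 60.3 and 72.1 CPM with sh1 and 169, 155 and 179 with sh2, on either side of 90.8 to 92.1 in control (-1.33 ± 0.049). CEACAM5, carcinoembryonic antigen, was higher with sh1, at 18.6, 21.2 and 22.5 against 5.70, 6.41 and 7.80 CPM, both above 2.11 to 2.41 in control (1.65 ± 0.102). EPHA2, an ephrin receptor, was at 78.3, 78.0 and 77.0 against 143, 147 and 149 CPM, both below 264 to 266 in control (-0.91 ± 0.035). Tetraspanins were higher in 8 of 15 and lower in 3 (median 0.17), with CD151, a partner of laminin-binding integrins, at 97.7, 96.9 and 92.4 against 46.9, 51.0 and 46.9 CPM (0.99 ± 0.042).

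The tables also list a transcript length for each gene, which for genes with several transcripts moves with the mix of isoforms estimated in that table. Of 6172 tested genes with several transcripts, 17 (0.275%) had lengths that did not overlap between the hairpins and differed by at least 0.3 on the log2 scale. ZNF197, a zinc finger protein, was listed at 7559, 7073 and 7234 bases with sh1 and at 4598, 4674 and 4598 with sh2 (log2 ratio 0.66). ALG13, of N-glycan synthesis, was at 2093, 2103 and 2138 bases with sh1 and 3107, 3134 and 3030 with sh2, with 3036 to 3150 in control (-0.55). HNMT, which degrades histamine, was at 1123, 1336 and 1370 against 2062, 1764 and 1984 bases (-0.60), and its level was also lower with sh1, at 6.99 against 20.3 CPM. The sh2 lengths of ALG13 overlapped with control, and its sh1 lengths did not. These lengths come from estimates, and no test was made on them.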

How the data were processed

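RNA of KYSE510 cells was sequenced on BGISEQ-500, per the labels. Per the submitters' processing notes, which give no roles, the build was hg19 and the tools included RSEM 1.2.12, DESeq2 1.4.5, Bowtie2 2.2.5 and HISAT2 2.0.4. Per the file headers, the deposited tables give expected counts, TPM, FPKM and a length per gene. Between 70.0% and 70.4% of the deposited expected counts were whole within 1e-06. Use of strand in counting is not given in the sources, so overlapping and near-identical genes are uncertain. RefSeq (GRCh38.p14) gave symbols for 19223 of 19266 genes.

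Expected counts were rounded. All 9 tables entered 1 edgeR 4.0.16 quasi-likelihood fit (R 4.3.3, filterByExpr, TMM, group as the term), with Benjamini-Hochberg adjustment over 13580 genes and calls at 0.05. The common edgeR value for the spread between tables beyond counting error was 2.33%, and single genes varied more. Chi-square per degree of freedom was 1.49 (sh1), 2.03 (sh2) and 1.75 (control) over genes averaging 20 or more counts. The tables of a sample are therefore not copies. SEs follow from the fit. Counts were simulated for 13580 genes with the spread between tables, and 50 genes were changed at each of 1.1-, 1.25-, 1.5- and 2-fold. Of these 28%, 72%, 82% and 98% were called, and 4.76% of calls were false. In the data 69.8% of genes were called, far more than were changed in the simulation, so these rates may not hold there. The deposited TPM gave levels between genes. The deposited FPKM values entered 2 alternatives, limma 3.58.1 on log2(FPKM + 1) and log2(FPKM + 0.1) for genes averaging 1 FPKM or more, where fold changes of low genes are understated.

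Named genes were the 15 of greatest fold and the 10 of greatest TPM difference in each direction, both among genes called at 2-fold. For the 15, a mean of at least 10 CPM and no overlap of the sh1 and sh2 tables were also required. Further named were genes 2-fold from control in opposite directions, genes at 0 counts with 1 hairpin, and list members of greatest difference or against their list. Members and lists were chosen with earlier results of these data known. Some genes are not reported here and are left out of the figures by name, though they count in the list totals.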

Additional observations from a re-analysis of the deposited data

Results flagged for a closer look

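For 9 genes the hairpins lay at least 2-fold from control on opposite sides, and the values that follow are log2 fold changes of sh1 over sh2 from the direct test. CD81, a tetraspanin with 9738 counts over the sh1 tables and 2378 over the sh2 tables, differed by 2.14 and is the best counted of them. TMPRSS2, a transmembrane serine protease of epithelia, was at 13.6, 14 and 12.6 CPM with sh1, 3.07, 2.86 and 3.45 with sh2 and 6.51, 6.72 and 6.66 in control, a difference of 2.10. UGT1A7, a glucuronosyltransferase, differed by -3.26, with 35 counts over the sh1 tables and 364 over the sh2 tables. It shares most of its exons with the other UGT1A genes, and their summed CPM was 355 ± 5.47 with sh1 and 344 ± 7.08 with sh2 (SD, n = 3).

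The other 6 had few counts. IRX4, a homeobox gene, differed by 2.96 (53 counts with sh1 and 7 with sh2), MATN3, a matrilin, by 2.74 (64 and 10), EFHD1, a mitochondrial calcium-binding protein, by 2.68 (79 and 13) and EFNA2, an ephrin, by 2.42 (101 and 20). PGLYRP4, a peptidoglycan recognition protein, differed by 2.04 (108 and 28), and FRMD3 was the 1 other gene that was lower with sh1, by -2.24 (38 and 195).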

How the results depend on the processing

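The 57 genes named by fold, TPM difference, opposite sides of control or 0 counts were recomputed under other settings. These were other scalings, filters, tools and units, a block, 1 table left out, or the tables of each sample summed. All 888 values kept their direction, and those with a test also kept their side of the threshold. These 57 genes were chosen as extremes of the same fit, so their stability was likely from the outset and does not extend to other calls. Members named from the lists were recomputed only within the list medians. The 2-fold counts were 583 genes (310 higher with sh1, 273 lower) with a mean of at least 10 CPM, where only 9952 genes were tested, and, over 11774 genes with limma, 477 (247 higher, 230 lower) on log2(FPKM + 1) and 781 (415 and 366) on log2(FPKM + 0.1), against 1124 (594 and 530). Leaving out 1 hairpin table at a time gave 8983 to 9210 calls (4404 to 4527 higher, 4550 to 4683 lower) and 1161 to 1179 at 2-fold (606 to 635 higher, 531 to 567 lower). With the table number as a replicate block there were 9501 calls against 9477. Deviations of sh1 and sh2 tables with the same number correlated at 0.0103, 0.0993 and 0.0458. Those with unlike numbers correlated at -0.0963 to 0.0432. All these values are small, and whether the numbers pair the tables was not tested. DESeq2 1.42.0 called 8383 of 19266 genes (43.5%), and edgeR without the low-count filter 9541 of 17193 (55.5%). The main fit called 69.8%, so the share called depends on which genes are tested. No scaling moved the median of all genes beyond 0.031.

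Of the list medians, 961 values stayed within the spread between tables, 45 moved further and 2 reversed. With a mean of at least 10 CPM, metallothioneins went from 0.30 to -0.07, and cyclins D and CDK inhibitors from -0.20 to 0.10, with fewer members tested. Summing near-identical or overlapping genes, chosen after seeing the data, turned UGT1A7 from -3.26 to 0.05 and FSBP from -8.74 to 0.03, and brought LGALS9C to -0.72, TUBA1C to 0.43, SERPINB3 and SERPINB4 to -2.41 and SPRR1A to 0.46. With the tables of each sample summed, no residual degrees of freedom were left for a test.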
